A study of Mus musculus with 6 samples.

Results

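Major histocompatibility complex (MHC) class II genes and Cd74, the invariant chain, were followed in mouse CD8+ T cells cultured with an inhibitor of the histone demethylase LSD1. The set held 10 of the 16281 genes in the table of read counts: Cd74, the chain genes H2-Aa, H2-Ab1 and H2-Eb1, the peptide editor genes H2-DMa and H2-DMb1, and the regulator genes Ciita, Rfx5, Rfxank and Rfxap. Each was taken by an exact match of its gene symbol. The members were chosen by their role in the pathway and with the changes of Cd74 and of the class II chains between GSK and Veh in these same samples already known. Their values between the groups are therefore given as a description. Where a member is said to be called or not, this places it on the scale used for all genes and is not a test of the set, and what follows is about how the members differ from one another and from the rest of their pathway.

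CD8+ T cells were enriched with an isolation kit from spleens (the series' design text adds lymph nodes) of OT1 mice on the C57BL/6 strain, genotype Tg(TcraTcrb)1100Mjb, whose T cells carry a transgenic receptor for an ovalbumin peptide. All samples were activated for 48 h with anti-CD3 and anti-CD28 antibodies and IL-2, and then expanded with IL-2 for 3 days. In the GSK group, 0.5 μM GSK2879552, an irreversible LSD1 inhibitor, was present throughout, and the Veh group received vehicle in its place. Each group had 3 samples of polyadenylated RNA, which the study's legend gives as 3 mice. The study's text names 3 separate OT1 mice and does not state whether both groups drew on the same animals. The ages of the OT1 mice were not given in the sources used here. These were bulk samples, in which fewer cells of a type and less RNA per cell cannot be told apart.

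MHC class II molecules are pairs of an alpha and a beta chain that present peptides from endocytosed proteins to CD4+ T cells. The invariant chain assembles with them in the endoplasmic reticulum, fills the peptide groove and carries them to endosomes, where proteases cut it down and H2-DM exchanges its last fragment for other peptides, a step that H2-O inhibits. The genes are transcribed mainly in B cells, dendritic cells and macrophages, and mouse T cells are known for making little of them. Their promoters carry an X box, bound by the RFX complex of Rfx5, Rfxank and Rfxap, and a Y box, an inverted CCAAT bound by NF-Y. Ciita, itself induced by interferon-γ, binds no DNA but docks on those factors and switches the genes on.

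A stretch of promoter is shown first for the class II genes whose 300-base window held letters of an X box followed by a Y box, because this arrangement is what the RFX complex, NF-Y and Ciita read. The windows are from RefSeq on GRCm38.p6, run from 250 bases before to 50 bases after the start, and matched 6 of the 10 members and 4 of the 6 other class II genes looked for. The members with no matching entry were H2-Ab1, Cd74, Ciita and Rfxap. Capitals mark AGNAAC, the letters taken for the X box, and ATTGG, the letters taken for the Y box, on the gene's own strand, with H2-Aa added because it pairs with H2-Ab1. The letters were chosen after these sequences were seen. The stretches are H2-Eb1 at chr17:34305765-34305822 (plus), H2-DMb1 at chr17:34153086-34153144 (plus), H2-Oa at chr17:34092292-34092350 (plus), H2-Ob at chr17:34238807-34238862 (plus), H2-Eb2 at chr17:34325532-34325589 (plus) and H2-Aa at chr17:34287857-34287914 (minus).
H2-Eb1: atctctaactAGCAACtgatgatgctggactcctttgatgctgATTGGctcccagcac
H2-DMb1: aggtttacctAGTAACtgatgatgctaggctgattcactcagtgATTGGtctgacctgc
H2-Oa: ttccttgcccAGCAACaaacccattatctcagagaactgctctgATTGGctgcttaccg
H2-Ob: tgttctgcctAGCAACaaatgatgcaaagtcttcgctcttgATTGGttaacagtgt
H2-Eb2: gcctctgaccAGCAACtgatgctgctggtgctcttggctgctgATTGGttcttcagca
H2-Aa: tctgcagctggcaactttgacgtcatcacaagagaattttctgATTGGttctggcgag

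The gap between the capitals was 27 bases in H2-Eb1 and H2-Eb2, 28 in H2-DMb1 and H2-Oa, and 25 in H2-Ob. The Y letters lay 43 to 100 bases before the start. Searched on both strands, AGNAAC occurred in 48.1% of all 32851 windows and ATTGG in 37.4%, and the ordered pair with 10 to 40 bases between them occurred in 1.67%. Of the letters searched, the H2-Aa window held ATTGG alone, 48 bases before the start. Its printed stretch also holds ggcaac, which differs from AGNAAC in the first letter, so the search does not show that an X box is absent. The windows of H2-DMa, H2-DMb2, Rfx5 and Rfxank did not hold the ordered pair.

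The libraries held 18288447 to 19846720 counted reads, with all GSK totals above all Veh totals by a small margin. Of the 16281 genes, 11698 had enough reads to be tested, all 10 members among them. A gene was called when edgeR's quasi-likelihood test gave a Benjamini-Hochberg adjusted p under 0.05 and the fold change passed 1.5. Across all genes tested, 2.22% were called higher and 4.09% lower in GSK. Levels are given as CPM, the read counts scaled to 1000000 reads with edgeR's TMM factors. The cells carried their labelled identity: Cd8a, the CD8 alpha chain, lay at 495 to 533 CPM in Veh and 529 to 555 CPM in GSK, against 0.47 to 1.79 CPM for Cd4. The summed level of 5 CD8+ T cell markers was 1936 to 2035 CPM in Veh and 1751 to 1868 CPM in GSK.

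Cd74 gave 135, 184 and 140 reads in the 3 Veh samples and 411, 362 and 293 reads in the 3 GSK samples. Scaled to library size these were 7.34, 9.87 and 7.35 CPM in Veh and 21.6, 18.3 and 15.3 CPM in GSK. Every GSK sample was above every Veh sample. The mean went from 8.19 ± 1.45 CPM (SD, n = 3) to 18.4 ± 3.15 CPM (SD, n = 3), a log2 fold change of 1.17 with a standard error (SE) of 0.15 and a 95% interval of 0.84 to 1.49. Cd74 was the 1 member called higher. Its gene lies at chr18:60803849-60812652 on the plus strand of GRCm38, away from the MHC, and spans the microRNA gene Mir5107.

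H2-Ab1, the beta chain of the I-A molecule, moved the other way. Its reads numbered 343, 320 and 375 in Veh and 172, 217 and 82 in GSK, or 18.6, 17.2 and 19.7 CPM against 9.03, 11.0 and 4.27 CPM. The Veh samples were close together, all GSK samples were below them, and GSK replicate 3 was the lowest by a clear distance. From 18.5 ± 1.28 CPM in Veh the mean went to 8.09 ± 3.45 CPM in GSK (SD, n = 3 each), a log2 fold change of -1.19 with an SE of 0.31 and a 95% interval of -1.96 to -0.42. H2-Ab1 was the 1 member called lower, and its gene lies at chr17:34263227-34269418 on the plus strand. The call was lost without the filter on low counts, and also when Veh replicate 1, Veh replicate 2, Veh replicate 3 or GSK replicate 1 was left out in turn, with log2 fold changes of -1.18, -1.24, -1.14 and -1.28. Leaving out GSK replicate 3, the lowest sample, kept it at -0.89. Cd74 stayed called in every one of those fits, between 1.03 and 1.32.

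H2-Aa encodes the alpha chain with which the product of H2-Ab1 pairs. Its gene lies at chr17:34282744-34287823 on the minus strand. It had only 22, 16 and 30 reads in Veh and 32, 50 and 22 reads in GSK. Those are 1.20, 0.858 and 1.58 CPM in Veh and 1.68, 2.53 and 1.15 CPM in GSK. The groups overlapped, since GSK replicate 3 was below Veh replicate 1. The log2 fold change was 0.56 with an SE of 0.35 and a 95% interval of -0.20 to 1.32, and H2-Aa was not called.

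H2-Eb1, the beta chain of the I-E molecule, was as thinly counted as H2-Aa. C57BL/6 mice lack a working alpha chain for I-E, so its product is not known to reach the surface as I-E in this strain. Its reads were 23, 14 and 16 in Veh against 25, 32 and 22 in GSK, or 1.25, 0.751 and 0.840 CPM against 1.31, 1.62 and 1.15 CPM. Again the groups overlapped, with GSK replicate 3 below Veh replicate 1. The log2 fold change was 0.52 with an SE of 0.33 and a 95% interval of -0.19 to 1.23. At counts this low a change of the size seen in Cd74 would fall inside that interval, so this depth could tell it neither from no change nor from the change of Cd74.

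**Figure D1:**
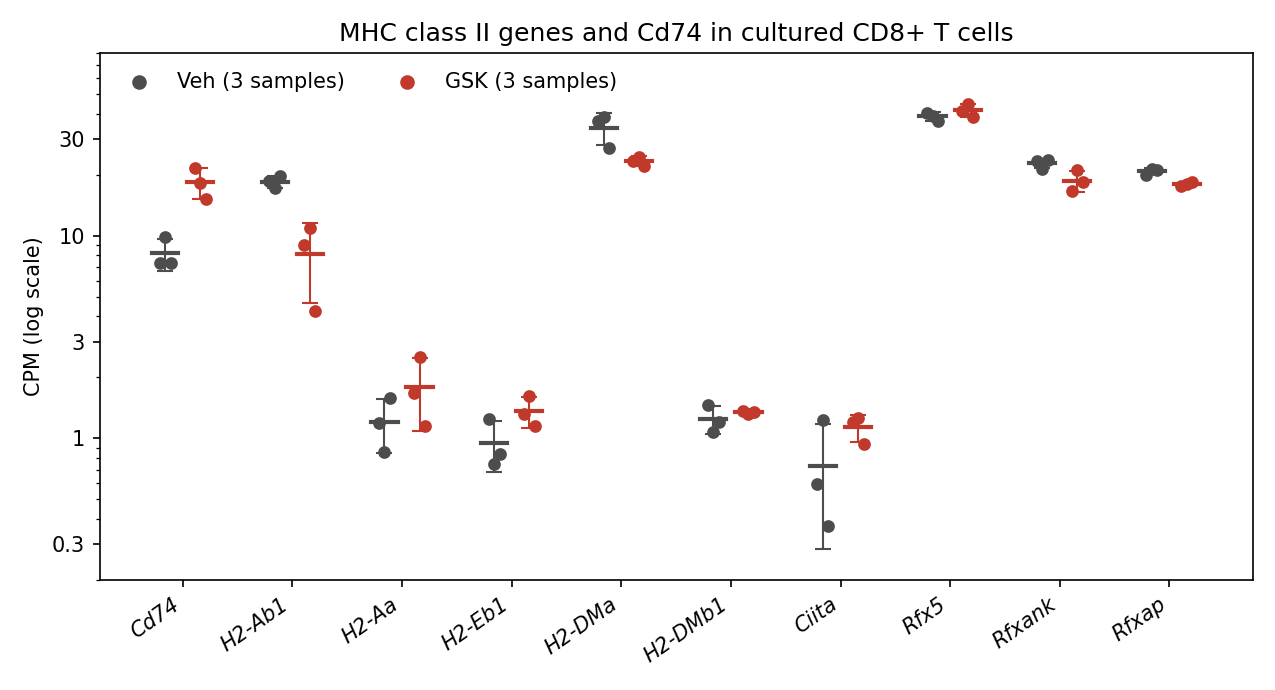
Points are the CPM of each gene in each of the 3 Veh samples (grey) and 3 GSK samples (red) on a log axis, with bars for the mean and SD. Cd74 lies at 7.34 to 9.87 CPM in Veh and 15.3 to 21.6 CPM in GSK, H2-Ab1 at 17.2 to 19.7 and 4.27 to 11.0 CPM, while the groups overlap for H2-Aa, H2-Eb1, H2-DMb1, Ciita and Rfx5.

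H2-DMa, the alpha chain of the peptide editor, was well counted. It had 677, 718 and 516 reads in Veh and 449, 486 and 424 in GSK, which are 36.8, 38.5 and 27.1 CPM against 23.6, 24.6 and 22.1 CPM. All GSK samples were below all Veh samples, and Veh replicate 3 was much nearer to GSK than the other Veh samples were. Its log2 fold change of -0.54 had an SE of 0.12 and a 95% interval of -0.81 to -0.28, which met the adjusted p but stopped short of the fold of 1.5. Without Veh replicate 3 it reached -0.68 and was called. H2-DMa lies at chr17:34119693-34139101 and overlaps Brd2 on the opposite strand, a gene at 325 CPM with a log2 fold change of 0.03.

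H2-DMb1 encodes a beta chain for the same heterodimer and its estimate was near 0. Its reads were 27, 20 and 23 in Veh and 26, 26 and 26 in GSK, or 1.47, 1.07 and 1.21 CPM against 1.36, 1.32 and 1.35 CPM. GSK fell entirely inside the Veh range, and the log2 fold change was 0.11 with an SE of 0.29 and a 95% interval of -0.52 to 0.73. Of the 31-base stretches in its transcripts 37.6% also occur in those of H2-DMb2, the neighbouring copy. This may make the count of H2-DMb1 uncertain, which was not tested. H2-DMb2 itself, named for this overlap after its values were seen, had 85, 68 and 57 reads in Veh and 59, 52 and 44 in GSK, with a log2 fold change of -0.49, an SE of 0.23 and an adjusted p of 0.11 in edgeR. Of the other chain genes, H2-Aa and H2-DMa shared 0 such stretches with another gene, H2-Ab1 shared 0.564% of its own and H2-Eb1 1.17%.

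Among the regulators, Ciita, the master switch of the genes, was barely counted, with 11, 23 and 7 reads in Veh and 23, 25 and 18 in GSK, or 0.598, 1.23 and 0.368 CPM against 1.21, 1.26 and 0.938 CPM. Veh replicate 2 matched the GSK samples and the other Veh samples were below them. The log2 fold change was 0.63 with an SE of 0.42 and a 95% interval of -0.27 to 1.53, and it ran from 0.31 without Veh replicate 3 to 1.23 without Veh replicate 2. Ciita, at chr16:10480014-10531064, overlaps Dexi on the opposite strand, a gene at 12.4 CPM.

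Rfx5, the large subunit of the RFX complex, was the member with the highest CPM. It had 40.6, 39.2 and 36.9 CPM in Veh and 41.6, 45.0 and 38.8 CPM in GSK, so the groups overlapped. Its log2 fold change of 0.10 had an SE of 0.071, and the 95% interval of -0.05 to 0.26 leaves room for only a small change.

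Rfxank, the ankyrin repeat subunit, had 23.4, 21.5 and 23.6 CPM in Veh and 16.6, 21.1 and 18.4 CPM in GSK. The highest GSK sample was just under the lowest Veh sample, and the log2 fold change of -0.29 (SE 0.095, 95% interval -0.49 to -0.08) met the adjusted p but not the fold. It overlaps Nr2c2ap on the opposite strand, where the log2 fold change was 0.38 with an adjusted p of 0.0046 in edgeR's quasi-likelihood test. Rfxap, the remaining RFX subunit, had 20.1, 21.4 and 21.2 CPM in Veh and 17.6, 18.1 and 18.4 CPM in GSK. Its groups did not overlap, yet its log2 fold change of -0.21 (SE 0.078, 95% interval -0.38 to -0.04) did not pass the test. The kit marks strand, but the strand setting of the counting was not given in the sources used here, so reads of these overlapping pairs may be shared.

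Of the 10 members, 1 was called higher and 1 lower. By the adjusted p alone 1 was higher and 3 were lower, where 16.6% of all genes tested were higher and 15.5% lower. In either direction 2 were called, with 6.32% of all genes tested, and 4 met the adjusted p alone, with 32.1%. All GSK samples were above all Veh samples for 1 member and below for 4, and 23.7% and 23.0% of all genes tested did the same. The groups thus did not overlap for 5 of the 10, where they did not overlap for 46.7% of all genes tested. The median log2 fold change of the members was 0.11, against -0.0039 over all genes tested. Since the comparison that chose the set gave these counts, nothing is read from them.

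**Figure D2:**
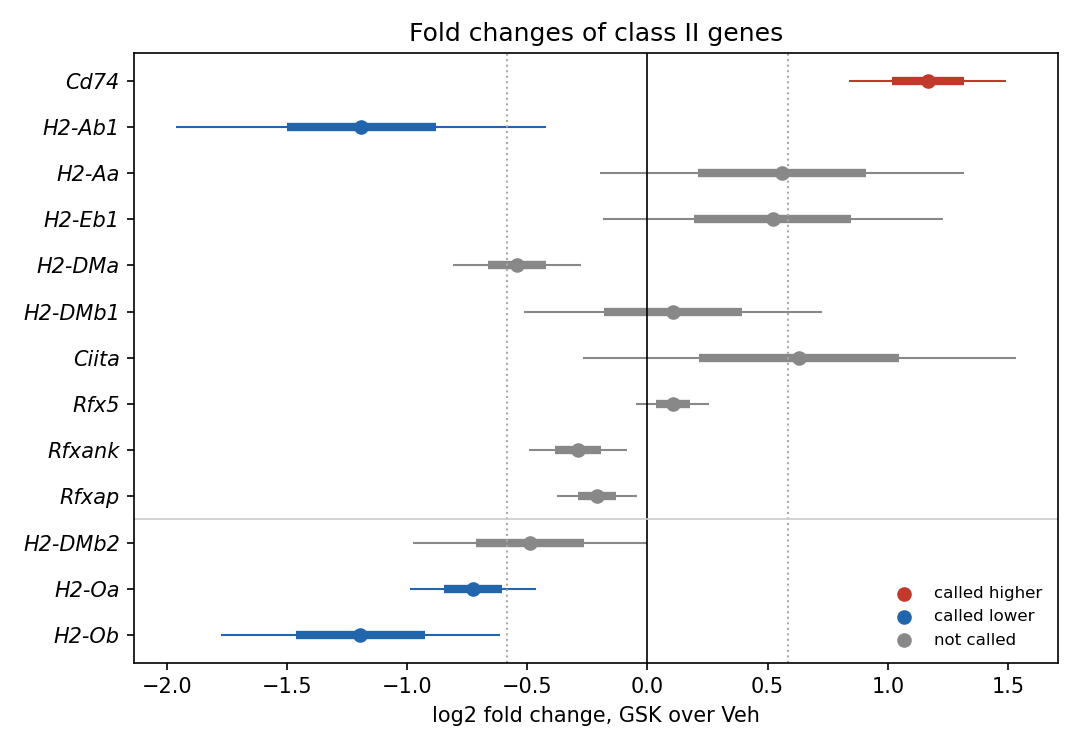
Points are log2 fold changes of GSK over Veh, thick bars the SE and thin bars the 95% interval, with dotted lines at a fold of 1.5 in each direction and a grey line setting off H2-DMb2, H2-Oa and H2-Ob, which are outside the set of 10. Cd74 (1.17) lies to the right, H2-Ab1 (-1.19) and H2-Ob (-1.19) lie furthest to the left, and the wide bars of H2-Aa, H2-Eb1, H2-DMb1 and Ciita go with their low read counts.

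Levels can be compared between genes only per length, so CPM was divided by the kilobases of exon in the protein-coding transcripts of each gene. On that scale H2-Ab1 led the Veh samples at 15.3 ± 1.05 CPM per kb (SD, n = 3), followed by H2-DMa at 12.8 ± 2.30, and their ranges overlapped. Rfxap at 9.66 ± 0.335, Rfx5 at 8.01 ± 0.384 and Rfxank at 6.28 ± 0.320 CPM per kb were each apart from the next above. Cd74 came next at 5.78 ± 1.03 CPM per kb, overlapping Rfxank. A gap then separated these 6 genes from H2-Aa at 1.07 ± 0.318, H2-DMb1 at 0.890 ± 0.143, H2-Eb1 at 0.567 ± 0.160 and Ciita at 0.0891 ± 0.0545 CPM per kb, of which H2-Aa and H2-DMb1 overlapped.

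In GSK the order was led by Cd74 at 13.0 ± 2.22 CPM per kb. H2-DMa at 8.78 ± 0.469, Rfx5 at 8.61 ± 0.635, Rfxap at 8.35 ± 0.190, H2-Ab1 at 6.68 ± 2.84 and Rfxank at 5.14 ± 0.624 CPM per kb formed a run in which each neighbour overlapped the next. The low genes kept their order, with H2-Aa at 1.58 ± 0.618, H2-DMb1 at 0.958 ± 0.0186, H2-Eb1 at 0.814 ± 0.144 and Ciita at 0.138 ± 0.0212 CPM per kb, of which H2-DMb1 and H2-Eb1 overlapped. Cd74 was thus below H2-Ab1 in Veh and above it in GSK, while H2-Aa stood far below H2-Ab1 in either group. The exon length of H2-DMa includes long upstream transcripts, which lowers its level on this scale.

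Ratios of reads within 1 sample do not depend on library size. For each read of H2-Ab1 the Veh samples held 0.394, 0.575 and 0.373 reads of Cd74, and the GSK samples 2.39, 1.67 and 3.57. The groups did not overlap, and Cd74 was the minority in every Veh sample and the majority in every GSK sample. The reads of H2-Ab1 for each read of H2-Aa were 15.6, 20.0 and 12.5 in Veh and 5.38, 4.34 and 3.73 in GSK. Corrected for exon length the same ratio was 11.6 to 18.6 in Veh and 3.47 to 5.00 in GSK, so the chains of the I-A pair were unequal in all 6 samples and less so in GSK.

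H2-Ab1 was also lower relative to H2-Eb1 in GSK, with 14.9, 22.9 and 23.4 reads for each H2-Eb1 read in Veh and 6.88, 6.78 and 3.73 in GSK. For H2-DMa over H2-DMb1 the ratios were 25.1, 35.9 and 22.4 in Veh and 17.3, 18.7 and 16.3 in GSK, again with no overlap. The ratios without H2-Ab1 or H2-DMa overlapped between the groups. These were Cd74 over H2-Aa, at 4.67 to 11.5 in Veh and 7.24 to 13.3 in GSK, Cd74 over H2-Eb1, at 5.87 to 13.1 and 11.3 to 16.4, and H2-Aa over H2-Eb1, at 0.957 to 1.88 and 1.00 to 1.56. These ratios divide by genes with 14 to 50 reads per sample, and the ratio of Cd74 to H2-Ab1 restates the values with which the members were chosen, so no contrast is drawn between them.

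**Figure D3:**
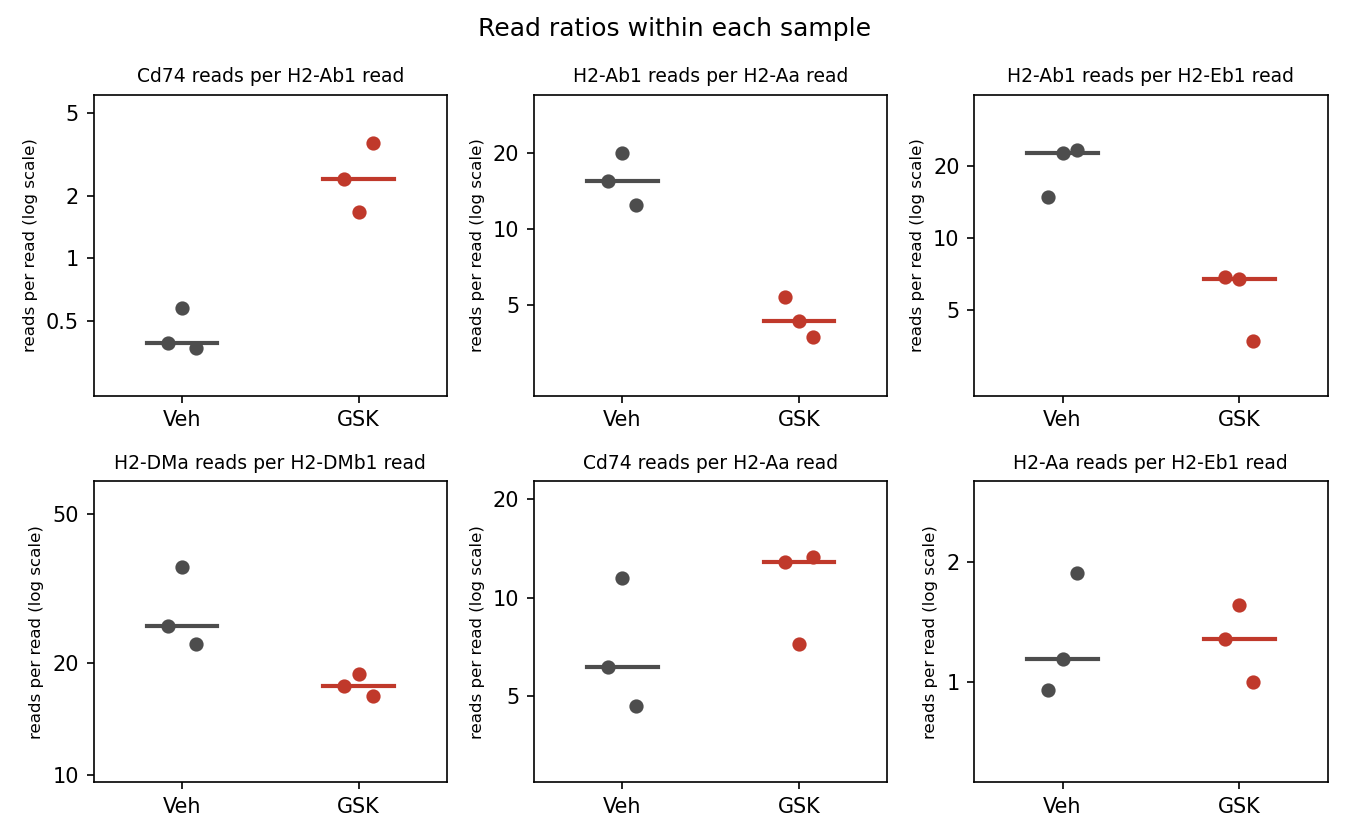
Each panel plots a ratio of reads within a sample on a log axis with its own range, for 3 Veh samples (grey) and 3 GSK samples (red), with a bar at the median. Cd74 reads per H2-Ab1 read lie at 0.373 to 0.575 in Veh and 1.67 to 3.57 in GSK, and the ratios with H2-Ab1 or H2-DMa on top separate the groups, whereas Cd74 over H2-Aa and H2-Aa over H2-Eb1 do not.

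The same GSK samples recurred at the ends of the members' ranges. GSK replicate 3 was the lowest of its group for 7 of the 10 members, H2-Aa, H2-Ab1, H2-Eb1, Cd74, H2-DMa, Ciita and Rfx5. GSK replicate 2 was the highest for 7, namely H2-Aa, H2-Ab1, H2-Eb1, H2-DMa, Ciita, Rfx5 and Rfxank. For Cd74 the highest of the group was GSK replicate 1. Among the Veh samples no replicate was lowest for more than 5 members. The share of all genes with the same order is not given here, so nothing is read from these counts.

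H2-Oa and H2-Ob encode the chains of H2-O, the inhibitor of H2-DM, and both fell. H2-Oa had 15.2, 12.6 and 14.8 CPM in Veh and 9.29, 8.90 and 7.56 CPM in GSK, a log2 fold change of -0.73 with an SE of 0.12 and an adjusted p of 7.3e-04 in edgeR's quasi-likelihood test. H2-Ob had 4.78, 2.73 and 4.10 CPM in Veh and 1.68, 2.07 and 1.30 CPM in GSK, a log2 fold change of -1.19 with an SE of 0.27 and an adjusted p of 0.0048 in the same test. All GSK samples were below all Veh samples for both genes. Their ratio overlapped between the groups, at 3.17 to 4.61 H2-Oa reads for each H2-Ob read in Veh and 4.29 to 5.80 in GSK. H2-Eb2, named for its promoter, had 0 to 5 reads per sample and was too low to test, and H2-Ea and H2-Ea-ps were not analysed here. The ordered pair of X and Y letters was in H2-Oa and H2-Ob, both called lower, and in H2-Eb1 and H2-DMb1, neither called. H2-Eb1 and H2-DMb1 had few reads and wide intervals, and the called members H2-Ab1 and Cd74 had no matching window. The relation of the letters to the calls was not tested.

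Along chromosome 17 the classical region from H2-Oa to H2-Eb2, chr17:34092379-34341410, spans 249 kb and held 14 genes of the table, of which 13 were tested. EdgeR and DESeq2 called 0 of them higher, with 1 at an unadjusted p under 0.05 in edgeR, and both called 3 lower, beside 2.22% and 4.09% of all genes tested. In edgeR the 3 were H2-Oa, H2-Ob and H2-Ab1, a count that includes a member and from which nothing is read. H2-Ob starts 24.3 kb to the left of H2-Ab1 and H2-Oa 171 kb to the left, and between them lie genes that did not pass the test, among them Tap1, Tap2 and Psmb9 of the class I peptide pathway. H2-Aa starts 19.5 kb to the right of H2-Ab1 and H2-Eb1 42.6 kb to the right. H2-DMa, lower by less than the fold of 1.5, and Psmb8, a proteasome subunit with a log2 fold change of 0.18, also lie between H2-Oa and H2-Ob and met the adjusted p. The region was laid out after the members' values were seen.

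**Figure D4:**
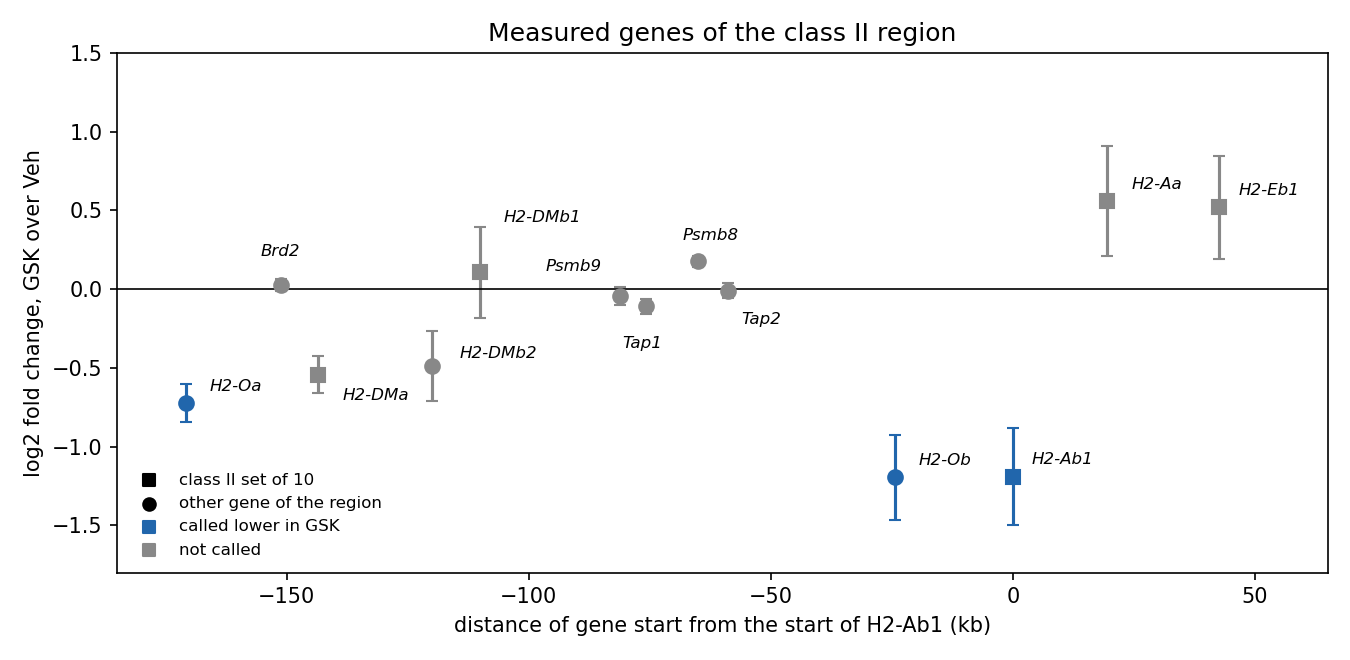
The log2 fold change of GSK over Veh with its SE is plotted for the 13 tested genes of the region against the distance in kb of each gene's start from that of H2-Ab1. H2-Oa (blue, called lower) is separated by uncalled genes (grey) from H2-Ob and H2-Ab1 (blue), which are neighbours among the tested genes, and H2-Aa at 19.5 kb and H2-Eb1 at 42.6 kb lie above 0 with wide bars.

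The wider pathway was described with 41 genes in 4 lists, of which 38 were in the table and 34 were tested. Of these, 0 were called higher and 4 lower, namely H2-Oa, H2-Ob, Ctsl and Ifngr2, beside 2.22% and 4.09% of all genes tested. By the adjusted p alone 7 were higher and 9 lower, beside 16.6% and 15.5%. For the 0 called higher by edgeR, DESeq2 also called 0, and 9 had an unadjusted p under 0.05 in edgeR. The median of the 34 log2 fold changes was -0.039, against -0.0039 over all genes tested.

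Among 10 genes for cutting the invariant chain, folding and turnover, 9 were tested. Ctsl, cathepsin L, a protease that trims the invariant chain in thymic epithelium, had 5.71, 5.25 and 3.73 CPM in Veh and 2.78, 2.53 and 2.92 CPM in GSK. It fell by 0.83 on the log2 scale with an SE of 0.21 and an adjusted p of 0.0082 in edgeR. Canx, the chaperone calnexin and the most abundant of the list, had a log2 fold change of 0.19 with an adjusted p of 0.0049 in edgeR. Ifi30, a lysosomal thiol reductase, at 0.42 (adjusted p 2.1e-04 in edgeR), and Sppl2a, the protease that clears the last membrane stub of the invariant chain, at 0.26 (adjusted p 0.0014 in edgeR), were likewise higher by less than the fold of 1.5, and were named after their values were seen.

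Of 19 promoter partners and inducers 18 were tested. Ifngr2, the signalling chain of the interferon-γ receptor, had 15.5, 14.4 and 13.8 CPM in Veh and 9.66, 9.46 and 8.65 CPM in GSK. It fell by 0.65 on the log2 scale with an SE of 0.11 and an adjusted p of 6.0e-04 in edgeR. Ifngr1, the ligand-binding chain, had a log2 fold change of -0.42, and Irf4, a factor induced by receptor stimulation in T cells, 0.55, each with an adjusted p of 3.3e-05 in edgeR and a fold short of 1.5, and both were named after their values were seen.

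Cd74 at the cell surface also binds the cytokine Mif, together with Cd44, Cxcr2 and Cxcr4. Of 6 such genes 5 were in the table and 4 tested. EdgeR and DESeq2 called 0 of them, and 1 in each direction had an unadjusted p under 0.05 in edgeR, beside 2.22% and 4.09% of all genes tested called higher and lower. Mif, the most abundant, lay between 357 and 366 CPM in Veh and between 351 and 361 in GSK, with a log2 fold change of -0.03 and a 95% interval of -0.11 to 0.05. Cxcr4 had a log2 fold change of -0.43 with an adjusted p of 0.0097 in edgeR and a fold short of 1.5, and Cd44 had 0.05 with an interval of -0.05 to 0.14, both named after their values were seen.

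Cd74 and the class II chains are abundant in B cells, dendritic cells and macrophages, so markers of those cells are given beside them. Of 18 B cell markers 15 were in the table, 8 of which had 0 reads in at least 1 sample, and their summed level was 8.82 to 11.7 CPM in Veh and 11.8 to 14.8 CPM in GSK. Cd22, an inhibitory receptor of B cells, had 4, 11 and 8 reads in Veh and 54, 53 and 44 in GSK, and rose by a log2 fold change of 2.65 with an SE of 0.35 and an adjusted p of 1.5e-04 in edgeR. The most abundant B cell markers, Cd79b and Pou2af1, had log2 fold changes of -0.41 and 0.73 with adjusted p of 0.070 and 0.095 in edgeR.

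Of 7 dendritic cell markers 4 were in the table and 2 tested, with a summed level of 3.27 to 4.84 CPM in Veh and 1.77 to 2.62 CPM in GSK. Itgax, the integrin CD11c, which activated CD8+ T cells can also carry, had 81, 46 and 63 reads in Veh and 27, 27 and 22 in GSK and fell by 1.37 on the log2 scale (SE 0.27, adjusted p 0.0023 in edgeR). Zbtb46 had a log2 fold change of 0.03 with a 95% interval of -0.91 to 0.98, and Clec9a, named after its values were seen, was at 0 in all samples but GSK replicate 2. Itgax was lower in GSK as H2-Ab1 was. Of its 31-base stretches 11.8% occur in other genes, and any effect of this on its count was not tested.

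Of 14 monocyte and macrophage markers 13 were in the table and 5 tested, and their summed level of 12.2 to 18.2 CPM in Veh overlapped that of 11.3 to 15.2 CPM in GSK. Fcgr3 fell by 1.21 and Tyrobp rose by 1.43 on the log2 scale, with adjusted p of 0.036 and 0.047 in edgeR. DESeq2 gave them adjusted p of 0.10 and 0.11, and of the 6 fits lacking a sample only the one without Veh replicate 2 called them. Cd68 and Itgam, the most abundant, had log2 fold changes of 0.08 and -0.70 with adjusted p of 0.74 and 0.073 in edgeR, and Adgre1, named after its values were seen, had at most 1 read in a sample. Markers of other cells thus moved in both directions beside Cd74 and H2-Ab1, and their part in the results was not tested.

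Profiles across the 6 samples were compared with those of 10176 genes with a mean of at least 50 reads. Closest to Cd74 by the root mean square difference of centred log2 CPM were Tnfsf4, the OX40 ligand, at 0.114, Slc15a1, a peptide transporter, at 0.129 and Plch1, a phospholipase C, at 0.140. The level of Tnfsf4 went from 4.01 ± 0.519 CPM in Veh to 8.07 ± 0.743 in GSK (SD, n = 3 each). Closest to H2-Ab1 were Apbb1 at 0.166, Bend5 at 0.168 and Zfp607b at 0.177. That of Apbb1 went from 11.2 ± 0.891 CPM to 5.61 ± 1.93 (SD, n = 3 each). H2-Aa, H2-Eb1, H2-DMb1 and Ciita were below that mean and were not in the search.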

How the data were processed

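Raw read counts per gene, as deposited by the authors in 1 table for 6 samples, were used as they stood, without normalization. The labels give a stranded poly(A) library and 150-base paired reads, and the submitters' processing notes name Trimmomatic, HISAT2 2.1.0, HTSeq 0.11.2 and GRCm38. The annotation release and the strand setting of the counting were not given in the sources used here. Totals of 18288447 to 19846720 reads set the precision, and genes under about 50 reads per sample have wide intervals.

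Counts were fitted in R 4.3.3 with edgeR 4.0.16 (TMM scaling, filterByExpr with a minimum count of 10, robust quasi-likelihood fit, Benjamini-Hochberg adjustment over 11698 genes), with no block. The procedure was tested on simulated data. Calls required both a fold change beyond 1.5 and an adjusted p below 0.05. Alternatives were DESeq2 1.42.0, DESeq2's size factors (RLE), no filter, no robust estimation, a replicate block, calls on adjusted p with no fold limit, and fits lacking 1 sample in turn. The p-values measure the spread between 3 samples per group, given as mice in the study. They take the groups as unpaired, and whether the groups shared mice was not stated.

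Members and gene lists were chosen with earlier results of these data known. Named were all members, every called gene and the most abundant gene of each pathway list, the called and the 2 most abundant genes of each list of other cell types, and the 3 nearest profiles of Cd74 and H2-Ab1. Other genes are named for an overlap, a shared sequence or their place in the region, or are marked as named after their values were seen. Some genes under this rule are not reported here. Coordinates and overlaps came from RefSeq on GRCm38.p6 by Entrez identifier, and exon lengths from the basic GENCODE annotation of GRCm38. Promoter letters and the chromosome region were chosen after values were seen. The table's functional annotation columns were used only for the closing observations.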

Additional observations from a re-analysis of the deposited data

How the results depend on the processing

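Over 11 alternative fits, every member kept the sign of its log2 fold change. Cd74 stayed called in all of them. H2-Ab1 ranged from -1.48 to -0.89 and lost its call in 5, and the cause was not tested. Without the low-count filter 0 members were called lower, and 1 marker of other cells was called higher. With the adjusted p alone 3 members were lower, 7 pathway genes were higher and 9 lower, and 1941 of all genes were higher and 1819 lower. DESeq2 called 1 marker of other cells higher and 1 lower, in place of 2 each, and the fit without robust estimation called 1 higher. Leaving out 1 sample at a time gave 0 to 1 members lower, 0 to 1 pathway genes higher, 1 to 2 markers higher and 1 to 2 lower. Without Veh replicate 3 the member called lower was H2-DMa, not H2-Ab1. Samples with the same replicate number did not deviate together (correlations -0.05, -0.08 and 0.16), so the numbers were not taken as pairs. A fit with the replicate block called 253 genes higher and 447 lower, against 260 and 479, and 1 marker of other cells lower instead of 2, and H2-Ab1 stayed called at -1.23. Depth limits H2-Aa, H2-Eb1, H2-DMb1 and Ciita, at no more than 50 reads per sample, whose 95% intervals reached both sides of 0.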

Other observations

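In the functional annotation deposited beside the counts, 9 genes carried the term for the MHC class II protein complex, 6 of them members, and all 9 were tested, with 1 called higher and 3 lower. The pathway term for antigen processing and presentation held 73 genes, including all 10 members, and of its 60 tested genes 4 were called higher and 4 lower. Of all genes tested, 2.22% were called higher and 4.09% lower, and since these terms hold the members, nothing is read from the counts. The term for primary immunodeficiency held 4 members, Ciita, Rfx5, Rfxank and Rfxap, none of which was called.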
